A study of Mus musculus with 12 samples.

Results

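The genes described are the chains of the fibrillar and other interstitial collagens in mouse tumours. They were chosen by symbol as every row named Col, a type number, the letter a and a chain number, without the type IV chains, Col15a1 and Col18a1, which belong to basement membranes. Of 25116 rows in the table, 43 carried a collagen chain symbol, and 36 of these are the genes described. The rule used symbols only, but it was set with earlier results of these data known.

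A collagen molecule is a triple helix of alpha chains, made inside the cell as a procollagen whose end pieces are cut off outside it. Types I, II, III, V, XI, XXIV and XXVII are fibrillar and pack into fibrils, with type V chains known to help start the fibrils of type I. Type VI forms beaded filaments around cells, and the fibril-associated collagens attach to the surface of fibrils. In tumours, fibroblasts are the best known source of type I and type III collagen, and tumour cells can make collagens too.

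The tumours were grown from E0771, a mouse triple-negative breast cancer line, in the mammary fat pads of C57BL/6J hosts and collected at day 22. All hosts, control hosts included, were of the genotype Tie2CreER;ERKi, which carries a tamoxifen-activated Cre recombinase under the endothelial Tie2 promoter and a knock-in gene that then makes endorepellin, the C-terminal part of perlecan. The control group (n = 5) had the control injection and the induced group (n = 7) had tamoxifen, so tamoxifen itself differs between the groups along with the knock-in gene. The comparison asks how endothelial endorepellin affects the tumour, and bulk RNA-seq was the readout. The labels do not say how many animals gave the tumours, so p-values measure the spread between these samples. No source used here says whether reads of the knock-in gene enter any row of the table, and induction was not checked.

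Total counts were 18993192 to 28372821 per tumour, and a floor of 3 counts is 0.104 to 0.158 CPM, the count scaled by library size, for counting error only. Keratin and junction genes of tumour epithelium were near 0 in all 12 tumours, with a summed level over 7 genes of 1.96 to 7.55 CPM and 4 of the 7 at 0 in some tumour, so the epithelial origin in the label is not visible in these genes. The control 1 and induced 4 tumours stand apart for many of the collagen genes. They are named at each result that rests on them.

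No collagen gene differed between induced and control tumours by more than the tumours of a group differed among themselves. Of the 36 genes, 23 passed the filter on low counts and were tested, 9 of them higher and 14 lower in induced tumours, with a median log2 fold change of -0.10. Over all 15199 genes tested, 49.8% were higher and 50.2% lower, with a median of -0.00086. By edgeR's quasi-likelihood test with Benjamini-Hochberg adjustment, 0 of the 23 had an adjusted p under 0.05, each at an adjusted p of 0.99991, against 0% of all genes tested. At an unadjusted p under 0.05 there were 0 of the 23 by edgeR and 0 by limma-voom. DESeq2 with default settings also gave 0, but it had no p-value for 5 of the 23. With its outlier replacement and outlier filter switched off, all 23 had a p-value and 0 were under 0.05. Over all genes, edgeR gave 324 (2.13%), DESeq2 by default 391 (2.59% of those with a p-value) and limma-voom 995 (6.55%). Without induced 4, edgeR gave 6 of the 23 (26.1%) at that level, against 4.97% of all genes, and 0 passed after adjustment. Without both control 1 and induced 4 it gave 0 of the 23, against 2.16% of all genes. Control and induced values overlapped for all 23, and 0.0592% of all genes had groups that did not overlap. The split of directions depended on single tumours, with 12 higher and 11 lower without control 1 and 4 higher and 19 lower without control 2, and limma-voom with sample weights gave 5 higher and 18 lower.

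What set the genes apart from each other was how they varied from tumour to tumour. Col3a1, Col5a1, Col5a3, Col6a1, Col6a2, Col6a3, Col7a1 and Col16a1 were at 51.4 CPM or more in all 12 tumours, with the highest tumour 1.59 to 5.59 times the lowest. Col1a1, Col1a2, Col5a2, Col12a1 and Col14a1 were highest in control 1 and next highest in induced 4, and much lower in the other 10 tumours. The plot of collagen levels by tumour shows both kinds.

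**Figure D1:**
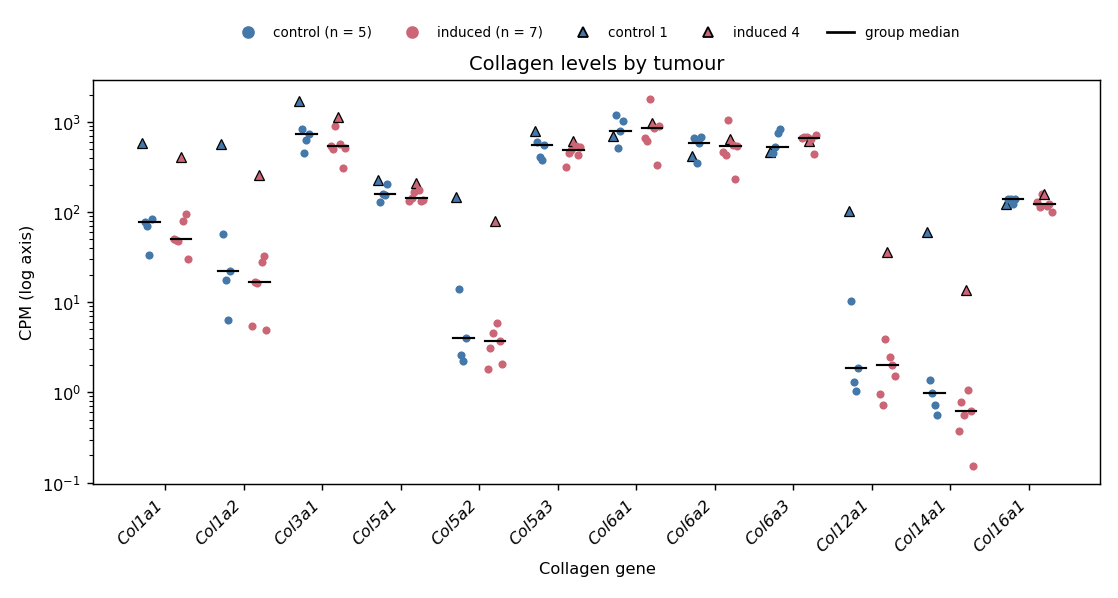
Level of 12 collagen genes in CPM on a log axis, 1 symbol per tumour, with control tumours (n = 5) in blue, induced tumours (n = 7) in red and a bar at each group median. Triangles mark control 1 and induced 4, which lie far above the other tumours for Col1a1, Col1a2, Col5a2, Col12a1 and Col14a1 and within or near the other tumours for Col5a1, Col6a1, Col6a2, Col6a3 and Col16a1.

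Of 11 fibrillar genes 9 were tested, with 2 higher and 7 lower in induced tumours and 0 past the threshold. Type I collagen is the main fibril of skin, bone and scar, and its molecule pairs 2 chains made from Col1a1 with 1 made from Col1a2. Col1a1 was at 588, 78.3, 69.1, 33.4 and 83.5 CPM in control 1 to control 5. In induced tumours its lowest value was 29.8 CPM in induced 7, its median 50.04 CPM and its highest 407 CPM in induced 4. After control 1 and induced 4, the next tumour was induced 6 at 94.5 CPM, and the remaining control and induced tumours overlapped. Col1a2 was at 560, 57.5, 17.4, 6.39 and 22.1 CPM in the control tumours. Over the induced tumours the lowest value was 4.92 CPM in induced 7, the median 16.6 CPM and the highest 256 CPM in induced 4. The highest tumour held 114 times the Col1a2 level of the lowest. The log2 fold change was -0.66 for Col1a1 (SE 0.77) and -1.37 for Col1a2 (SE 1.14), with unadjusted p of 0.406 and 0.252 by edgeR's quasi-likelihood test. Without control 1 the log2 fold changes were 0.71 and 0.99, and without induced 4 they were -1.56 and -2.95. Without both tumours they were -0.18 and -0.59. Col1a1 (ENSMUSG00000001506) spans bases 94936224 to 94953042 of chromosome 11 and Col1a2 (ENSMUSG00000029661) spans bases 4504814 to 4541544 of chromosome 6, both on the plus strand (GRCm38).

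The 250 bases before the RefSeq start of Col1a2 are shown because its level spread so widely. Beside them are those of Col3a1 and Col5a1, whose levels spread less. They are given 5′ to 3′ on the coding strand (GRCm38.p6), with matches on either strand to the TATA box letters TATAAA, to CCAAT, a box of many promoters, and to the GC box letters GGGCGG in capitals. The windows are chr6:4505368-4505617 for Col1a2, chr1:45311288-45311537 for Col3a1 and chr2:27886175-27886424 for Col5a1, all on the plus strand.
Col1a2: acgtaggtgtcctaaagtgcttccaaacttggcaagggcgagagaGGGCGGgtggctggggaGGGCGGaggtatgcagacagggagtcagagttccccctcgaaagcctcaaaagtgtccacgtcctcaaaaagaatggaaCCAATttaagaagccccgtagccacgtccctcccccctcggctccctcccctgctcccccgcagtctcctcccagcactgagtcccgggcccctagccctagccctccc
Col3a1: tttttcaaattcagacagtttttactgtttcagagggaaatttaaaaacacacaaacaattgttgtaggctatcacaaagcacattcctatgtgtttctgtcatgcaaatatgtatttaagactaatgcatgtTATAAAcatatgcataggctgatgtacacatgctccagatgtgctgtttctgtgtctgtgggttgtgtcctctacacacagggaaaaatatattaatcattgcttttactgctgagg
Col5a1: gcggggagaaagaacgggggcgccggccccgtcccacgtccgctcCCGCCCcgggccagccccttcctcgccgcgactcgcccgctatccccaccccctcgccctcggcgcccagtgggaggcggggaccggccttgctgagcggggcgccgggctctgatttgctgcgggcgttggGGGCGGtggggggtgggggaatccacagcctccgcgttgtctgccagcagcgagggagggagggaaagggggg
The Col1a2 window held 2 GGGCGG matches and 1 CCAAT match, which starts 109 bases before the start. In the Col3a1 window the 1 match was TATAAA, 117 bases before the start, and the Col5a1 window held 2 GGGCGG matches, 1 of them on the other strand. Promoter windows were found for 28 of the 36 genes, and 17 of these held GGGCGG (60.7%), 9 held CCAAT (32.1%) and 5 held TATAAA (17.9%). Col1a1, Col5a2, Col12a1 and Col14a1 were among the genes with no window, so motifs cannot be set against the spread of levels. Over the 32851 windows of the table the shares were 32.7%, 33.8% and 12.4%. No 2 matches overlapped in the windows shown, and a match is only a description of the letters.

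Type III collagen forms fine fibrils, often together with type I, from 3 copies of the Col3a1 chain. Col3a1 was at 1709, 828, 446, 632 and 734 CPM in control 1 to control 5. The lowest induced value was 306 CPM in induced 6, the median 544 CPM and the highest 1141 CPM in induced 4. Control 1 and induced 4 were again the 2 highest tumours, but every tumour held at least 306 CPM, and the groups overlapped. The mean ± SD was 869.7 ± 490.02 CPM over the 5 control tumours and 636 ± 285 CPM over the 7 induced tumours. The log2 fold change was -0.45 (SE 0.35, unadjusted p = 0.216, edgeR's quasi-likelihood test), and without control 1 it was -0.06. Col3a1 (ENSMUSG00000026043) spans bases 45311538 to 45349706 of chromosome 1 (plus strand).

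Type V chains combine into minor fibrillar molecules. Here control 1 was highest and induced 4 next for each of Col5a1, Col5a2 and Col5a3, but the size of the range differed. The highest tumour held 81.5 times the lowest for Col5a2 and 2.52 times for Col5a3. Col5a1 was at 225, 128, 159, 155 and 204 CPM in control tumours. In induced tumours its lowest value was 131 CPM in induced 1, its median 143 CPM and its highest 209.9 CPM in induced 4. The highest tumour held 1.75 times the Col5a1 level of the lowest, the narrowest range of any fibrillar chain tested. Col5a2, the chain that joins Col5a1 in the common type V molecule, was at 146, 14.1, 2.59, 2.22 and 4.05 CPM in control tumours. Over the induced tumours the lowest value was 1.79 CPM in induced 1, the median 3.67 CPM and the highest 78.7 CPM in induced 4. Col5a2 was at 1.79 to 5.82 CPM in 9 tumours, at 14.1 CPM in control 2 and far higher in the 2 tumours that were also highest for type I chains. Col5a3, another type V chain and named here after its values were seen, was at 793, 589, 406, 378 and 547 CPM in control tumours. The lowest induced value was 315 CPM in induced 1, the median 482 CPM and the highest 613 CPM in induced 4. The log2 fold changes were -0.16 for Col5a1 (SE 0.16), -1.24 for Col5a2 (SE 1.195) and -0.19 for Col5a3 (SE 0.19). Without control 1 that of Col5a2 was 1.32, without induced 4 it was -3.28, and without both tumours it was -0.72. Col5a1 (ENSMUSG00000026837) spans bases 27886425 to 28039514 of chromosome 2 (plus strand), Col5a2 (ENSMUSG00000026042) spans bases 45374321 to 45503282 of chromosome 1 (minus strand) and Col5a3 (ENSMUSG00000004098) spans bases 20770050 to 20815067 of chromosome 9 (minus strand).

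The other fibrillar chains were low. Col2a1, the chain of the main cartilage collagen, was at 2.22, 1.99, 6.29, 5.21 and 4.80 CPM in control tumours and at 2.37, 4.53 and 6.72 CPM as the lowest, median and highest of the induced tumours. Its lowest values were those of control 2, control 1 and induced 3. Col2a1 had a log2 fold change of 0.17 (SE 0.33), which was -0.01 without control 2. Col11a2, a chain of the minor fibrillar collagen of cartilage, ranged from 0.665 to 2.12 CPM and Col27a1 from 0.56 to 2.73 CPM over the 12 tumours. Their log2 fold changes were 0.04 and -0.08, and both changed sign without single tumours, to -0.15 for Col11a2 without control 2 and to 0.15 for Col27a1 without control 1. Col11a1 and Col24a1 were not tested, with highest values of 0.952 CPM in control 4 and 2.22 CPM in control 1.

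All 3 type VI genes tested of 6 were slightly higher in induced tumours, with log2 fold changes of 0.05 to 0.06 that were far inside their standard errors. These chains were among the most abundant, and neither control 1 nor induced 4 stood apart for them. Per kilobase of exon, Col6a1 was the highest of the 36 genes, at 196 ± 85.8 CPM per kb (SD, n = 12), followed by Col3a1 at 74.7 ± 38.9, Col5a3 at 74.1 ± 18.6, Col6a2 at 66.02 ± 24.8 and Col6a3 at 51.7 ± 10.4 CPM per kb. Of neighbours in that order, Col3a1 and Col5a3, Col5a3 and Col6a2, and Col6a2 and Col6a3 differed by less than the SD of the higher gene, while Col6a3 was more than either SD above the next gene, Col1a1, at 20.4 ± 26.7 CPM per kb. The SD was wide for Col6a1, and its lowest tumour, at 74.9 CPM per kb, was at the mean of Col3a1. Divided by the longest coding transcript instead, Col6a1 was at 209.5, Col3a1 at 132, Col6a2 at 118, Col5a3 at 82.5 and Col6a3 at 61.2 CPM per kb, so the order of Col5a3 and Col6a2 depended on the length used.

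In CPM, Col6a1 was at 698, 1174, 509, 796 and 1009 in control tumours. In induced tumours its lowest value was 328 CPM in induced 6, its median 844 CPM and its highest 1797 CPM in induced 3. Col6a2 was at 421, 662, 348, 580 and 683 CPM in control tumours and at 230.2 CPM in induced 6, a median of 544 CPM and 1043 CPM in induced 3 among induced tumours. These 2 genes lie near each other on the minus strand of chromosome 10, Col6a1 (ENSMUSG00000001119) from 76708792 to 76726168 and Col6a2 (ENSMUSG00000020241) from 76595762 to 76623630, and both were highest in induced 3 and lowest in induced 6. Col6a3 (ENSMUSG00000048126), which codes for the longest of the 3 chains and spans bases 90765923 to 90843971 of chromosome 1, minus strand, was at 465, 450.3, 524, 743 and 835 CPM in control tumours. Over the induced tumours the lowest value was 442 CPM in induced 6, the median 652 CPM and the highest 709 CPM in induced 7. The log2 fold changes were 0.06 for Col6a1 (SE 0.33), 0.05 for Col6a2 (SE 0.29) and 0.06 for Col6a3 (SE 0.17). Each changed sign without single tumours, to -0.22 for Col6a1 and -0.18 for Col6a2 without induced 3, to -0.08 for both without control 3, and to -0.04 for Col6a3 without control 2 and -0.03 without control 1, where Col6a2 was also at -0.03. Limma-voom with sample weights gave -0.29, -0.30 and -0.16. Col6a4, Col6a5 and Col6a6, chains with restricted expression, had at most 0.5682 CPM in any tumour and were not tested.

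Of 9 fibril-associated genes 6 were tested, with 2 higher and 4 lower in induced tumours. Col12a1 and Col14a1 had the widest range among them and Col16a1 the narrowest. Col12a1, whose product is known from tendon, ligament and fascia, was at 102, 10.2, 1.32, 1.04 and 1.88 CPM in control tumours. The lowest induced value was 0.721 CPM in induced 2, the median 2.01 CPM and the highest 35.6 CPM in induced 4. Col14a1, also a fibril surface collagen, was at 59.2, 1.36, 0.976, 0.725 and 0.565 CPM in control tumours. In induced tumours its lowest value was 0.152 CPM in induced 7, which is 4 counts, its median 0.62 CPM and its highest 13.8 CPM in induced 4. In the 10 tumours besides control 1 and induced 4, Col14a1 was between 4 and 39 counts, so its fold changes rest on few reads there. The log2 fold changes were -1.78 for Col12a1 (SE 1.22, unadjusted p = 0.167) and -2.32 for Col14a1 (SE 1.32, unadjusted p = 0.101, the smallest of the 23, edgeR's quasi-likelihood test). For each of Col12a1 and Col14a1, 6 of 7 induced tumours were below the control mean, which control 1 set. Without control 1 the values were 0.90 and 1.46, without induced 4 they were -3.60 and -4.42, and without both tumours they were -0.91 and -0.64. Col12a1 (ENSMUSG00000032332) spans bases 79598991 to 79718831 of chromosome 9 (minus strand) and Col14a1 (ENSMUSG00000022371) spans bases 55307750 to 55520803 of chromosome 15 (plus strand).

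Col16a1, a fibril-associated collagen found in many tissues, was at 121, 139.7, 138, 123 and 139 CPM in control tumours and at 99.98, 123 and 159 CPM as the lowest, median and highest of the induced tumours. The highest was induced 4 and the lowest induced 7, and control 1 was within the range of the others. Col16a1 spans bases 130047840 to 130099283 of chromosome 4 (plus strand). Its log2 fold change was -0.04 (SE 0.12), and 0.0097 without induced 7. The type IX chains, which decorate type II fibrils in cartilage, went the other way from Col1a2 in control 1. Col9a3 was at 2.25, 1.82, 3.90, 4.67 and 4.19 CPM in control tumours and at 2.82, 3.79 and 5.22 CPM as the lowest, median and highest of the induced tumours, with control 2 and control 1 the lowest of the 12. The log2 fold change of Col9a3 was 0.22 (SE 0.26). Of its exonic bases 6.07% also lie in exons of Tcfl5 on the other strand, and no source used here says whether the counting used strand. Col9a1, named after its values were seen, was at 0.415, 0.455, 2.34, 5.94 and 4.52 CPM in control tumours and at 0.811, 3.23 and 6.91 CPM as the lowest, median and highest of the induced tumours. The 4 lowest tumours for Col9a1 were control 1, control 2, induced 4 and induced 3, and the log2 fold change of 0.16 (SE 0.67) became -0.13 without control 1 or control 2 and -0.18 without induced 1. The transcription factor gene Sox9, known to drive type II and type IX collagen genes in cartilage, was at 85.9, 91.03, 271, 294 and 209.2 CPM in control tumours and had its lowest induced values, 92.1 and 99.1 CPM, in induced 3 and induced 4. Of the 7 cartilage markers, 2 were tested, 4 were at 0 in some tumour, and the list summed to 87.6 to 297 CPM in control and 93.5 to 374 CPM in induced tumours, nearly all of it Sox9. Its part in the collagen values was not tested. Col20a1 ranged from 0.221 to 0.952 CPM, with a log2 fold change of -0.10 that was 0.17 without control 4 and 0.03 without induced 4, and Col9a2, Col19a1 and Col22a1 were not tested, with at most 1.22 CPM in any tumour.

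Of the remaining 10 genes, 1 short-chain, 1 anchoring fibril and 3 transmembrane genes were tested, with 2 higher and 3 lower in induced tumours. The most abundant was Col7a1, which codes for the anchoring fibrils that tie basement membrane to the matrix below. Col7a1 was at 62.3, 88.5, 84.2, 51.4 and 59.9 CPM in control tumours and at 52.3, 75.7 and 108 CPM as the lowest, median and highest of the induced tumours. It had the smallest p among the genes higher in induced tumours, with a log2 fold change of 0.20 (SE 0.18, unadjusted p = 0.308, edgeR's quasi-likelihood test), and 5 of 7 induced tumours were above the control mean. Col7a1 spans bases 108953586 to 108984875 of chromosome 9 (plus strand). Col8a1, a short-chain collagen known from vessel walls and the cornea, was at 13.8, 3.78, 3.22, 0.771 and 1.41 CPM in control tumours. Over the induced tumours the lowest value was 0.0762 CPM in induced 7, which is 2 counts, the median 1.06 CPM and the highest 14.6 CPM in induced 4. Col8a1 thus joined the genes that were highest in control 1 and induced 4, here with induced 4 first. The log2 fold change of Col8a1 was -0.52 (SE 0.96), 0.49 without control 1, -1.84 without induced 4 and -0.84 without both.

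The transmembrane collagens are anchored in the cell surface. Col17a1, a part of the hemidesmosomes of epithelia, was at 3.15, 1.96, 2.00, 3.67 and 3.11 CPM in control tumours and at 1.84, 2.21 and 3.70 CPM as the lowest, median and highest of the induced tumours. Its log2 fold change was -0.16 (SE 0.25). Col23a1 was at 1.25, 0.49, 0.195, 0.997 and 0.376 CPM in control tumours and at 0.152, 0.309 and 0.686 CPM as the lowest, median and highest of the induced tumours. Its log2 fold change was -0.84 (SE 0.49, unadjusted p = 0.112, edgeR's quasi-likelihood test), and -0.48 without control 1, and 6 of 7 induced tumours were below the control mean. Col23a1 had between 3 and 36 counts per tumour, so this fold change rests on few reads. Col13a1 was between 0.195 and 1.13 CPM, with a log2 fold change of 0.08 that was negative without any 1 of control 2, control 3, control 5, induced 5, induced 6 and induced 7, at -0.15 to -0.0078. Col28a1 was not tested and was at 1.21, 0.105, 0.195, 0.227 and 0.0471 CPM in control tumours and at 0.0517, 0.114 and 0.258 CPM as the lowest, median and highest of the induced tumours, with 35 counts in control 1 and at most 7 in any other tumour. Col8a2, Col10a1, Col25a1 and Col26a1 had at most 0.935 CPM and were not tested.

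Summed over the 36 genes, collagen mRNA was 5984, 4234, 2729, 3534 and 4346 CPM in control 1 to control 5. In induced tumours the sum was lowest in induced 6, at 2255 CPM, with a median of 3527 CPM, and highest in induced 3, at 5382 CPM, with induced 4 at 5281 CPM. The groups overlapped, with a mean ± SD of 4166 ± 1205 CPM over the 5 control and 3745 ± 1171 CPM over the 7 induced tumours. Control 1 was the highest of the 12. The other control tumours, at 2729 to 4346 CPM, lay on both sides of the induced mean. The makeup of the sum differed between the high tumours. In induced 3 the type VI chains made up 65.2% of it, and in control 1 they made up 26.5%, the highest and the lowest share of the 12. Fibrillar chains summed to 4029 CPM in control 1 and 2713 CPM in induced 4, against 1002 to 1698 CPM in the other 10 tumours. Beaded filament chains summed to 1585 CPM in control 1 and 2237 CPM in induced 4, within the range of 1001 to 3511 CPM of the others. The 2 type I chains made up 19.2% of the sum in control 1 and 12.5% in induced 4, and 0.983% to 5.64% in the others. The plot of collagen mRNA by structural class shows these sums. In bulk tumours, fewer cells of a type and less RNA per cell cannot be told apart.

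**Figure D2:**
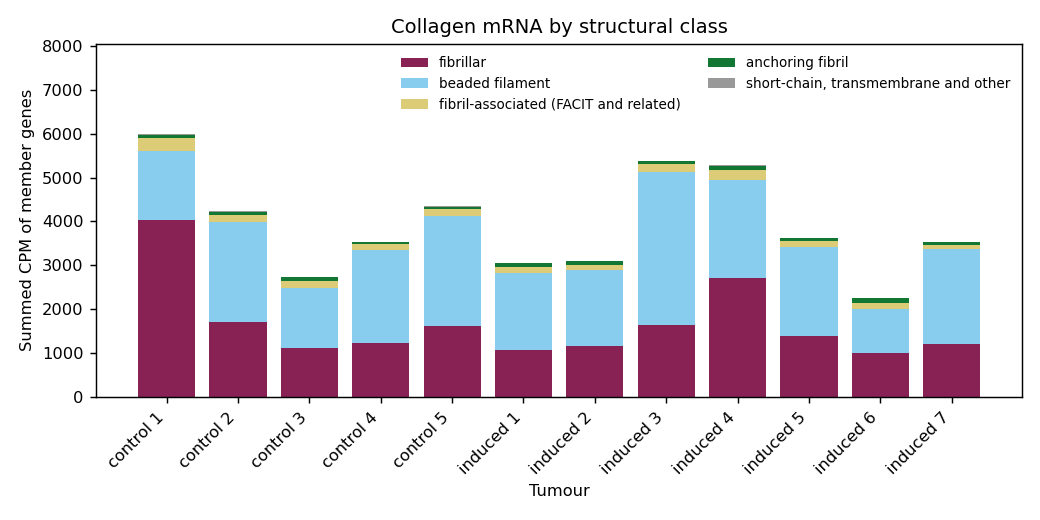
Summed CPM of the 36 collagen genes in each of the 12 tumours, stacked by structural class. The fibrillar part is largest in control 1 (4029 CPM) and induced 4 (2713 CPM), and the beaded filament part is largest in induced 3 (3511 CPM).

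Among 6 ratios between chains that share a molecule or a fibril, that of Col6a1 to Col6a2 varied least. The ratio of Col6a1 to Col6a2 in CPM was 1.66, 1.77, 1.46, 1.37 and 1.48 in control tumours and 1.42, 1.51 and 1.72 as the lowest, median and highest of the induced tumours. Its highest value was 1.29 times its lowest, over tumours in which Col6a1 itself spanned 5.48 times. The ratio of Col1a1 to Col1a2 was 1.05, 1.36, 3.97, 5.23 and 3.78 in control tumours and 1.59, 2.93 and 9.13 as the lowest, median and highest of the induced tumours. It was lowest in control 1, control 2 and induced 4, the 3 tumours with the most Col1a2, and highest in induced 1. Per kilobase of exon this ratio ran from 1.99 to 17.3, and per kilobase of the longest coding transcript from 0.947 to 8.23. The ratio of Col5a1 to Col5a2 was 1.54, 9.12, 61.5, 69.7 and 50.3 in control tumours and 2.67, 36.1 and 73.1 as the lowest, median and highest of the induced tumours. Control 1 and induced 4 thus held far more Col5a2 for each Col5a1 than the other tumours. The ratio of Col3a1 to Col1a1 ran from 2.81 in induced 4 and 2.91 in control 1 to 19.1 in induced 3. The ratio of Col5a1 to Col1a1 ran from 0.382 in control 1 to 4.63 in control 4, and that of Col6a3 to Col6a1 from 0.373 in induced 3 to 1.348 in induced 6.

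None of the 6 ratios differed between the groups by more than their spread within groups. The mean log2 ratio, induced minus control, was 0.43 for Col1a1 to Col1a2, 0.60 for Col5a1 to Col5a2, 0.28 for Col5a1 to Col1a1, 0.13 for Col6a3 to Col6a1, 0.02 for Col3a1 to Col1a1 and -0.01 for Col6a1 to Col6a2. The exact permutation test over 792 splits, two-sided, gave p = 0.427, 0.597, 0.677, 0.705, 0.975 and 0.871, each with an adjusted p of 0.975 over the 6 ratios, where the smallest p the design allows is 0.00126. Without control 1 the difference was -0.31 for Col5a1 to Col5a2, -0.27 for Col5a1 to Col1a1 and -0.35 for Col3a1 to Col1a1. The plot of chain ratios by tumour gives every value.

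**Figure D3:**
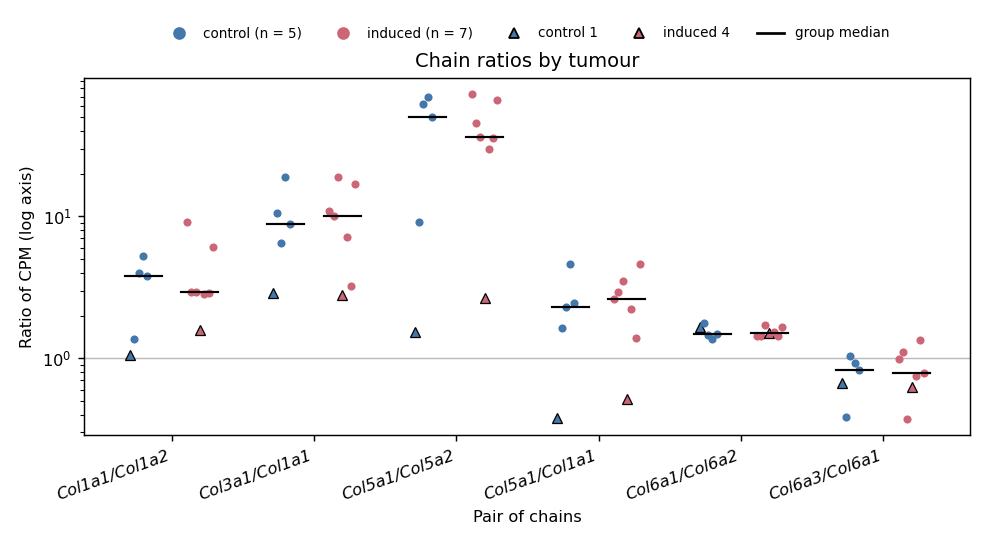
Ratio of CPM between 2 collagen chains for 6 pairs, on a log axis, 1 symbol per tumour with a bar at the group median (control n = 5, induced n = 7). Col6a1 to Col6a2 stays between 1.37 and 1.77, and control 1 and induced 4 (triangles) lie at the bottom for Col3a1 to Col1a1, Col5a1 to Col5a2 and Col5a1 to Col1a1.

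For most of the 23 genes tested, measured levels differed more between tumours of one group than for the median gene. The median within-group SD of log2 CPM was 0.64 over the 23 genes, against 0.32 over all genes tested, and 20 of the 23 were above that median. The comparison was not matched for level. Counting error adds to the SD of genes with few reads, such as Col13a1 (mean 0.623 CPM, SD 0.72) and Col23a1 (mean 0.495 CPM, SD 0.76), and its part was not tested. An SD above 0.84, the 90th percentile of all genes tested, was met by 7. Control 1 was the highest tumour for 10 of the 23 genes, and for 10 the 2 highest tumours were control 1 and induced 4. Control 2 was lowest for 5 genes and induced 7 for 5. The heat map of deviations shows that the genes high in control 1 and induced 4 were Col1a1, Col1a2, Col5a2, Col12a1, Col14a1 and Col8a1, and that Col3a1 followed them over a smaller range.

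**Figure D4:**
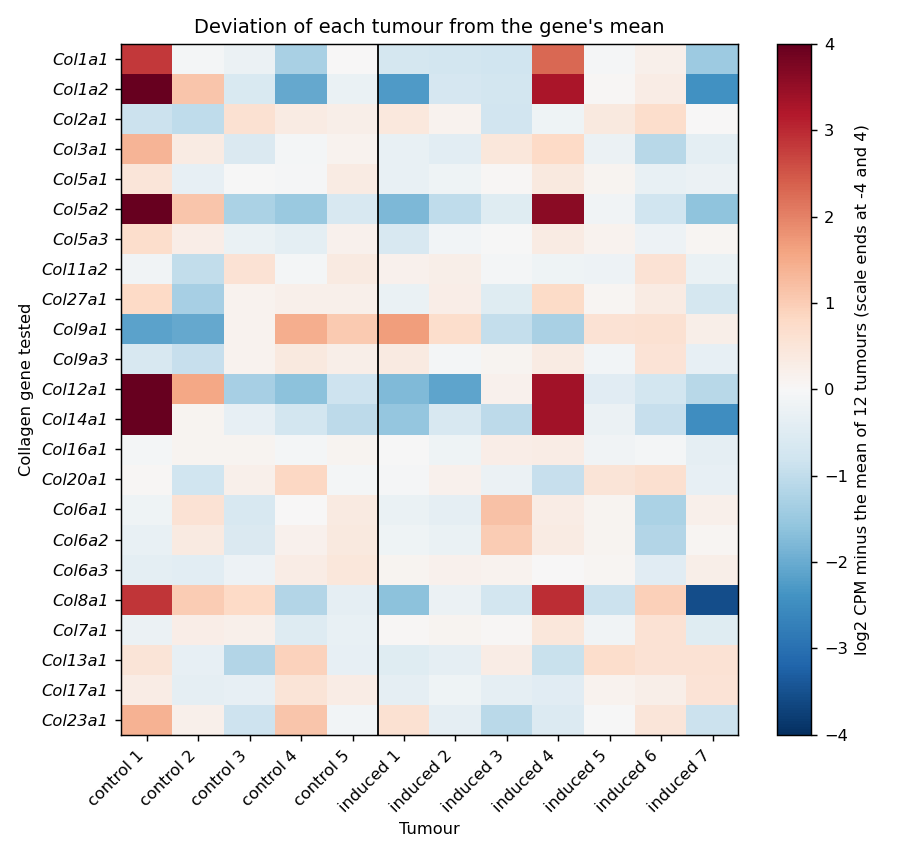
Heat map of log2 CPM minus the mean of the 12 tumours for the 23 collagen genes tested, red above and blue below the mean, with the scale ending at -4 and 4 and a line between control and induced tumours. Col1a1, Col1a2, Col5a2, Col12a1, Col14a1 and Col8a1 are deep red in control 1 and induced 4, where Col9a1 is blue.

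Marker genes of other cell types also differed between tumours. The macrophage list (7 genes, all tested, none at 0 in any tumour) summed to 1298 CPM in control 1 and 707 CPM in induced 4, and to 134 to 304 CPM in the other 10. All 7 were highest in control 1, and all 7 were lower in induced tumours by edgeR (median log2 fold change -0.59), with 6 higher and 1 lower without control 1 (median 0.27). The fibroblast list (12 genes, 11 tested, none at 0 in any tumour) summed to 426 to 836 CPM in control and 399 to 538 CPM in induced tumours, with control 1 highest and induced 4 at 485 CPM. Of its 11 tested genes, 8 were highest in control 1, and all 11 were lower in induced tumours (median log2 fold change -0.96). Of these, 2, Lum and Clec3b, had an unadjusted p under 0.05 by edgeR, against 2.13% of all genes, and 0 passed after adjustment. Both were highest in control 1. Without control 1, 7 were higher and 4 lower (median 0.16), with 0 at that level, against 1.29% of all genes. Without induced 4, 5 of 10 were at that level, against 4.97% of all genes. Without both control 1 and induced 4, 2 of 10 were higher and 8 lower (median -0.16), with 1 at that level, against 2.16% of all genes. Dcn, Lum, Pdgfra, Pdgfrb and Serpinf1 of this list were picked after their values were seen. Dcn codes for the fibril-binding proteoglycan decorin. It was at 146 CPM in control 1, 28.1 CPM in induced 4 and 2.33 to 9.57 CPM in the others. Lum, for the related lumican, was at 75.95, 10.03 and 0.152 to 2.69 CPM in the same order. Pdgfra, a growth factor receptor of fibroblasts, was at 100.9 to 225 CPM and was not among the highest in these 2 tumours, with 122 CPM in control 1 and 146 CPM in induced 4. Pdgfrb was lowest in control 1, at 52.6 CPM, with 80.5 CPM in induced 4 and its highest value, 118 CPM, in induced 1. Serpinf1 was highest in control 5, at 339 CPM, with 225 CPM in control 1 and 159 CPM in induced 4. The pericyte and smooth muscle list (9 genes, 8 tested, none at 0) summed to 64.9 to 100.7 CPM in control and 39.6 to 136 CPM in induced tumours, highest in induced 4. The part of any of these cell types in the collagen values was not tested.

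For 5 of the genes the fitted fold change depended on how the tool treats single high counts. DESeq2 with its default settings replaces an outlying count in groups of 7 or more, which here means the induced group and not the control group. It gave log2 fold changes of -1.53 for Col1a1, -2.88 for Col1a2, -3.21 for Col5a2, -3.51 for Col12a1 and -4.37 for Col14a1, with no p-value for these 5. A second run left out that replacement and also switched off DESeq2's filter that withholds the p-value of a gene with an outlying count. It gave -0.68, -1.39, -1.27, -1.81 and -2.36, close to the edgeR values, and the other 18 genes moved by 0. The unadjusted p in that DESeq2 run was 0.414, 0.237, 0.303, 0.148 and 0.0776. In the authors' deposited table these 5 genes stood at -1.53, -2.87, -3.19, -3.49 and -4.35, also with no p-value. Of the 36 genes, 31 had an adjusted p in the authors' deposited table, 0 of them under 0.05, and the smallest unadjusted p there was 0.0790. The plot of fold changes sets the fits side by side.

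**Figure D5:**
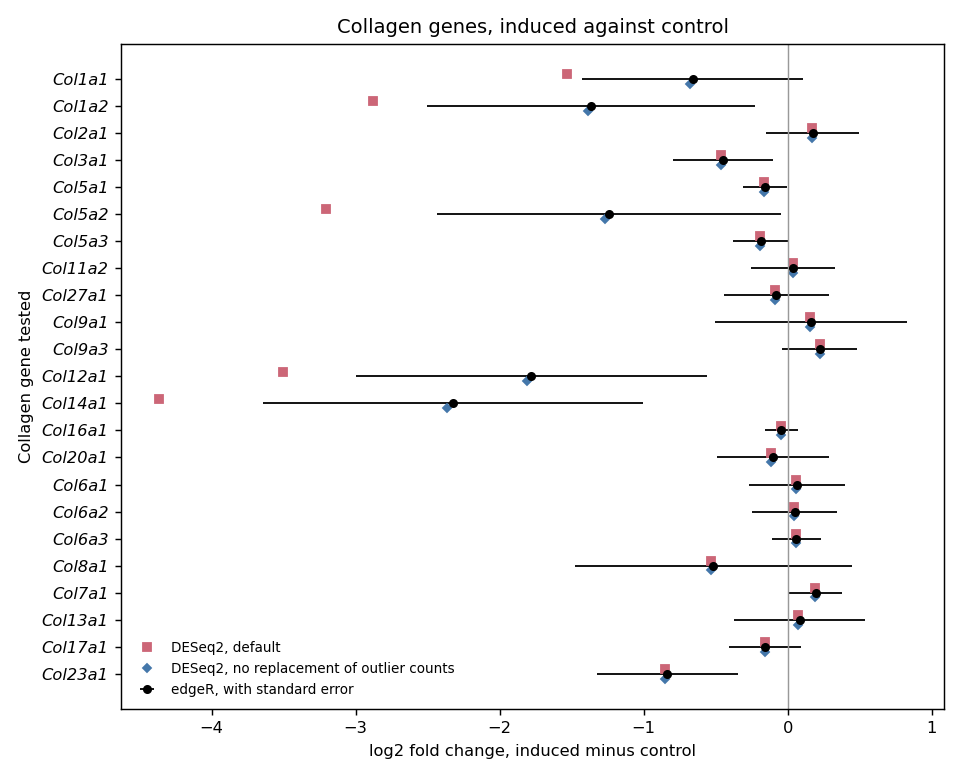
Log2 fold change, induced minus control, of the 23 collagen genes tested, by edgeR (black, bars are the standard error), DESeq2 with default settings (red squares) and DESeq2 without replacement of outlier counts (blue diamonds). The red squares lie far below the other symbols for Col1a1, Col1a2, Col5a2, Col12a1 and Col14a1 and with them for the other 18 genes.

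The machinery that makes, exports, trims, crosslinks, binds and breaks down collagen was listed by role as 58 genes, of which 54 were tested. Of the 54, 19 were higher and 35 lower in induced tumours, with a median log2 fold change of -0.06, against 49.8% higher and 50.2% lower over all genes tested, and 0 were past the adjusted threshold by edgeR, DESeq2 or limma-voom. At an unadjusted p under 0.05 there was 1 by edgeR (1.85%, against 2.13% of all genes), 3 by DESeq2 (6.12% of those with a p-value, against 2.59%) and 9 by limma-voom (16.7%, against 6.55%). Without induced 4, edgeR gave 8 of the 54 (14.8%), against 4.97% of all genes. Without both control 1 and induced 4 it gave 3 of the 54 (5.56%), against 2.16% of all genes. Without control 1 the split was 27 higher and 27 lower.

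Chain modification and folding (18 tested, 5 higher and 13 lower) had a summed level of 2698 to 3895 CPM in control and 2871 to 3625 CPM in induced tumours. Some members varied more than the sum, such as Serpinh1, a collagen chaperone of the endoplasmic reticulum, which was lowest in control 2 at 585 CPM and highest in control 4 at 1361 CPM. Plod3, a lysyl hydroxylase, was at 120 ± 13.2 CPM over the 5 control tumours and 106 ± 12.9 CPM over the 7 induced tumours (mean ± SD, as in the pairs of values that follow, control first). Ppib, a folding enzyme of the endoplasmic reticulum, was at 136 ± 26.5 and 112 ± 28.7 CPM, and P3h2, a prolyl hydroxylase, at 2.16 ± 0.95 and 1.43 ± 0.58 CPM. Neither control 1 nor induced 4 was highest for these 3 genes. Procollagen export (10 tested, 6 higher and 4 lower) summed to 898 to 1067 CPM in control and 859 to 1085 CPM in induced tumours. Klhl12, an adaptor known to enlarge transport vesicles for procollagen, was at 26.4 ± 2.94 and 30.1 ± 2.17 CPM, Sec13, a vesicle coat protein, at 143 ± 17.3 and 126 ± 24.9 CPM, and Creb3l1, a transcription factor of secretory cells, at 2.12 ± 1.64 and 1.42 ± 0.64 CPM. Creb3l1 alone of these 3 was highest in control 1, with a log2 fold change of -0.58, or -0.02 without that tumour.

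Genes that act on procollagen outside the cell included some with the tumour pattern of Col1a2. Of propeptide removal (7 tested, 2 higher and 5 lower), Adamts2, which trims the N-terminal end of procollagen, was at 36.7, 1.47, 1.46, 1.13 and 1.69 CPM in control tumours. Over the induced tumours it went from 0.457 CPM in induced 7 to 11.02 CPM in induced 4. Its log2 fold change was -1.78 (SE 1.02), 0.79 without control 1, -3.05 without induced 4 and -0.48 without both. Pcolce, an enhancer of C-terminal trimming, was at 149 ± 26.5 and 132 ± 23.8 CPM and Bmp1, the C-terminal trimming enzyme, at 115 ± 8.77 and 105 ± 18.9 CPM. Of crosslinking (5 tested, 1 higher and 4 lower), Loxl1, a lysyl oxidase, was at 38.5, 1.61, 1.02, 0.408 and 1.69 CPM in control tumours, and at 12.7 CPM in induced 4 and 0.158 to 1.2 CPM in the other induced tumours. Its log2 fold change was -1.86 (SE 1.21), 1.00 without control 1, -3.81 without induced 4 and -0.94 without both. Loxl3 was at 18.1 ± 3.78 and 15.6 ± 2.66 CPM and Loxl4 at 36.2 ± 18.4 and 31.9 ± 13.5 CPM, with a log2 fold change of -0.19 for Loxl4 that was 0.0060 without control 1 and 0.03 without control 2. The crosslinking sum was 191.5 CPM in control 1 and 188 CPM in induced 4, and 35.3 to 84.2 CPM in the other 10 tumours.

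Of collagen receptors (8 tested, 3 higher and 5 lower), Itga1, the alpha 1 integrin chain, was at 6.91 ± 3.15 and 5.42 ± 1.48 CPM, and Lair1, an inhibitory receptor of leukocytes, at 12.3 ± 9.57 and 7.73 ± 4.31 CPM. Lair1 was highest in control 1, at 28.98 CPM, and next in induced 4, at 15.9 CPM, with a log2 fold change of -0.67, or -0.07 when control 1 was left out. Itga11, the alpha 11 integrin chain of fibroblasts, was at 4.22 CPM in control 1 and 0.381 to 1.498 CPM in the other 11 tumours, with a log2 fold change of -0.95, or 0.06 when control 1 was left out. Of collagen breakdown (6 tested, 2 higher and 4 lower), Ctsk, a collagen-degrading cathepsin, was at 23.7, 50.4, 4.29, 0.952 and 1.46 CPM in control tumours. In induced tumours its lowest value was 1.60 CPM in induced 7, the median 2.54 CPM and the highest 10.5 CPM in induced 4. Its log2 fold change was -2.15 (SE 0.83, unadjusted p = 0.0220, adjusted p = 0.99991, edgeR's quasi-likelihood test), -1.08 without control 2 and 0.06 by limma-voom with sample weights, and the groups overlapped. Mmp13, a collagenase, was at 16.2 ± 6.59 and 30.1 ± 26.02 CPM, reaching 88.5 CPM in induced 2, with a log2 fold change of 0.89, or 0.32 without that tumour. Fap, a surface protease of activated fibroblasts that is also in the fibroblast marker list, was at 1.70 ± 1.71 and 0.944 ± 0.547 CPM, with a log2 fold change of -0.85, or 0.0026 when control 1 was left out.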

How the data were processed

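Bulk RNA-seq of 12 tumours was analysed from 1 deposited table. Per the labels' protocols, RNA was extracted with a column kit and libraries were made with a SMARTER mRNA-seq kit; the genome was GRCm38 (mm10), per the submitters' processing notes. Aligner, counter and strand use are not given in the sources. A protocol for fat cell differentiation of another line stands in the labels and was not used; groups came from the titles and the treatment label.

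The table holds the authors' raw counts per gene, per the file headers, with rlog values on the log2 scale, which were not used here, and their own log2 fold change, p-value and adjusted p-value. The signed fold ratio in the deposited table was not used.

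The counts were fitted with edgeR 4.0.16 in R 4.3.3 over the whole table: filterByExpr with a minimum count of 10, which kept 15199 of 25116 rows, TMM factors, a robust quasi-likelihood F test, two-sided, and Benjamini-Hochberg adjustment with a threshold of 0.05. Tumours varied with a common biological coefficient of 32.1%, and the standard error of a log2 fold change had a median of 0.183. CPM used TMM factors, and log2 CPM a prior count of 2. Levels between genes were divided by exonic length from GENCODE M21. No pair of samples of one group agreed within sampling noise, with a chi-square per gene of 13.0 to 220.1. Chain ratios were compared by an exact permutation test. The fit was tested on simulated counts. At the adjusted threshold it called 59 of 100 genes changed 2-fold, 86 of 100 changed 4-fold and 7 unchanged genes. The simulated spread followed the fitted trend over all genes, so the rates do not hold for collagen genes that varied more.

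Alternatives were other size factors and filters, a fit that was not robust, DESeq2 1.42.0 with default settings, limma-voom (limma 3.58.1) with sample weights, a replicate block, leaving out each tumour in turn, and leaving out 4 tumours. The 4 were control 1, control 2, induced 3 and induced 4, and no label used here sets them apart. A fit without both control 1 and induced 4, a second length and DESeq2 without outlier replacement or outlier filter were added after the data were seen. The genes and all lists were chosen with earlier results of these data known.

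Tumour values were given for Col1a1, Col1a2, Col3a1, Col5a1, Col5a2, Col6a1, Col6a2 and Col6a3, for the gene with the highest CPM per kb of each other class, and for the 4 with the smallest p among those higher and among those lower. Up to 3 genes with the smallest p were named per pathway list. Promoter sequences are from RefSeq (GRCm38.p6). Protein sequences were not analysed here.

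Other marker lists had sums, over all 12 tumours, of 11.6 to 541 CPM for skeletal muscle, 24.7 to 78.2 for adipocytes, 0.140 to 2.93 for skin epithelium, 131 to 195 for endothelium and 2.43 to 7.21 for Schwann cells.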

Additional observations from a re-analysis of the deposited data

Results flagged for a closer look

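Single tumours lay far from the rest of their group for 5 collagen values and 1 chain ratio, out of 60 groups of values examined, where chance flags about 1 in 20. In each case the gap to the nearest tumour took up more of the group's range than the 95% limit of Dixon's test allows. Among control tumours, Col14a1 in control 1 was at 5.89 log2 CPM, with the nearest tumour at 0.54. Among induced tumours, induced 4 was high for Col5a2 (6.30 log2 CPM, nearest 2.56), Col12a1 (5.16, nearest 1.99) and Col14a1 (3.79, nearest 0.20). The log2 ratio of Col5a1 to Col5a2 in induced 4 was low, at 1.41 against 4.88 in the nearest tumour. Col6a3 in induced 6 was low, at 8.79 log2 CPM against 9.26 in the nearest tumour. Of the 6, 4 belong to induced 4 and 1 to control 1. The flags are not independent, since the ratio flag shares Col5a2 with another flag of induced 4. The limit depends on group size, so flags cannot be compared between the groups. Control 1 was not flagged for Col5a2, though at 7.19 log2 CPM it was above induced 4.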

How the results depend on the processing

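In each of 24 alternatives, 0 of the collagen genes tested (19 to 36) and 0 of the pathway genes tested (48 to 58) passed the adjusted threshold; the smallest adjusted p of a collagen gene was 0.728, by limma-voom. At an unadjusted p under 0.05 edgeR gave 6 collagen genes and 8 pathway genes without induced 4 (26.1% and 14.8%, against 4.97% of all genes) and 1 of each without control 3 (4.35% and 1.82%, against 4.29%), with smallest adjusted p of a collagen gene of 0.908 and 0.927. Without both control 1 and induced 4, edgeR gave 0 collagen genes and 3 pathway genes (0% and 5.56%, against 2.16% of all genes). Of the 23 genes, 5 kept their direction in every alternative that tested them, Col3a1, Col5a1, Col7a1, Col17a1 and Col23a1. The cause of the changes of direction below was not tested, and values are log2 fold changes or, for pairs of chains, differences of log2 ratios.

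By limma-voom the changed directions were Col11a2 -0.091, Col9a3 -0.0069, Col20a1 0.045, Col6a1 -0.29, Col6a2 -0.30, Col6a3 -0.16, Itga11 0.050 and Ctsk 0.065. Without control 1, control 2, induced 3 and induced 4 they were Col1a2 0.18, Col2a1 -0.054, Col5a2 0.15, Col5a3 0.0089, Col11a2 -0.19, Col9a1 -0.15, Col9a3 -0.16, Col12a1 0.12, Col6a1 -0.21, Col6a2 -0.29, Col6a3 -0.18, Loxl4 0.057, Itga11 0.040, Ctsk 0.18, Col1a1 to Col1a2 -0.024, Col3a1 to Col1a1 -0.28, Col5a1 to Col5a2 -0.34, Col5a1 to Col1a1 -0.22 and Col6a1 to Col6a2 0.059, the last 5 being ratios of chains. Without both control 1 and induced 4 they were Col20a1 0.013, Col6a1 -0.023, Col6a2 -0.066, Col6a3 -0.015, Itga11 0.035, Col3a1 to Col1a1 -0.094 and Col6a1 to Col6a2 0.016.

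Leaving out each tumour in turn gave ranges of -1.56 to 0.71 for Col1a1, -2.95 to 0.99 for Col1a2, -0.014 to 0.37 for Col2a1, -3.28 to 1.32 for Col5a2, -0.15 to 0.21 for Col11a2, -0.32 to 0.15 for Col27a1, -0.18 to 0.66 for Col9a1, -3.60 to 0.90 for Col12a1, -4.42 to 1.46 for Col14a1, -0.10 to 0.0097 for Col16a1, -0.31 to 0.17 for Col20a1, -0.22 to 0.21 for Col6a1, -0.18 to 0.18 for Col6a2, -0.039 to 0.21 for Col6a3, -1.84 to 0.49 for Col8a1, -0.15 to 0.42 for Col13a1, -3.05 to 0.79 for Adamts2, -3.81 to 1.00 for Loxl1, -0.37 to 0.026 for Loxl4, -1.21 to 0.055 for Itga11, -1.17 to 0.0026 for Fap, -0.35 to 0.33 for Col3a1 to Col1a1, -0.31 to 1.18 for Col5a1 to Col5a2, -0.27 to 0.63 for Col5a1 to Col1a1, -0.056 to 0.037 for Col6a1 to Col6a2 and -0.098 to 0.32 for Col6a3 to Col6a1. The mean log2 of the summed collagen level stayed lower in induced tumours in each of the 15 alternatives run for it, by differences of -0.31 to -0.023. Means of the sums in CPM were not compared in these alternatives.

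No pairing of the tumours by replicate number was seen. Deviations of same-numbered tumours correlated at -0.53 to 0.21 over 5 numbers, and 1 of 5 control tumours correlated best with its own number. So few values cannot exclude a pairing. With a replicate block 0 collagen genes passed, 10 were higher and 13 lower, and the changed directions were Col27a1 0.052, Col16a1 0.020, Col13a1 -0.085 and Col6a3 to Col6a1 -0.014. Depth limits the 13 untested genes, whose highest level was 2.22 CPM. It also limits Col14a1, Col8a1, Col23a1, Col13a1 and Col20a1, which had 4, 2, 3, 4 and 6 counts in their lowest tumour.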
